A study of Homo sapiens with 4 samples.

Results

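In SNU638 cells, 227 protein-coding genes were transcribed in the cultures numbered replicate 1 and were close to absent in the cultures numbered replicate 2, whichever vector the cells carried. Levels are given as CPM, the count of a gene per 1000000 counts of its library. A gene was taken when it had at least 5 CPM in both Control replicate 1 and YTHDF1 replicate 1 and less than 0.5 CPM in both Control replicate 2 and YTHDF1 replicate 2. These were 227 of 19672 protein-coding genes, or 1.15%. The difference between the replicate numbers therefore chose the genes, and it is described here without a test. By family and role they included 3 of 44 collagen genes, 11 of 314 ion channel genes and 7 of 117 growth factor genes. They also held 6 of 145 neural adhesion and synapse genes. The kallikrein-related peptidase genes, of which 4 of 15 were included, were looked at only after the values were seen. Lists with shares near or under 1.15% are given further on. None of 55 keratins, 39 HOX genes, 36 claudins and tight junction genes, 27 integrins or 105 listed IFN-γ-induced genes was included. At a share of 1.15%, lists of this size can hold none without differing from other genes.

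SNU638 is an established human gastric cancer cell line. The cells carried either a control vector (Control) or a YTHDF1 vector that raises YTHDF1, a reader of N6-methyladenosine in mRNA. Each vector had 2 biological replicates, and all 4 cultures were without serum for 24 h and then received IFN-γ at 10 ng/ml, for 8 h according to the labels, whereas the paper's legends give another time. No culture was left without IFN-γ. The paper's methods describe plasmid transfection, and neither they nor the labels say what the replicate numbers stand for.

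Total counts were 57398137 to 60864942 per library, so 3 counts, which is what a count of 0 allows, correspond to at most 0.0523 CPM, and a gene had to have at least 294 counts in both libraries numbered 1 to belong to the 227. Such limits cover counting error only. YTHDF1 had 83.4 and 79.4 CPM in Control replicates 1 and 2 and 16569 and 2607 CPM in YTHDF1 replicates 1 and 2. The vector was therefore seen in both YTHDF1 libraries, at unequal levels. Of 33 general epithelial markers 26 were at 5 CPM or more in all 4 libraries, with EPCAM, an epithelial adhesion protein, at 240 to 285 CPM. The secreted gastric proteins TFF1, TFF2 and GKN1 had 0 counts in every library, and the gastric mucin MUC5AC had 0.239 to 0.314 CPM.

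Genes restricted to certain tissues or cell states are controlled largely at their promoters, where transcription factors, chromatin and DNA methylation act. Many human promoters lie in stretches rich in the dinucleotide CpG, whose cytosine can carry a methyl group, and other promoters hold few CpG. Tissue-restricted genes are found with both kinds of promoter, and methylation was not measured in these cultures.

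RefSeq promoter windows, 250 bases before to 50 bases after a start on GRCh38.p14, were held for 167 of the 227 genes. This is 73.6%, under the 80% needed, so a comparison of promoter composition between the 227 genes and other genes would be void and none is given. To show the range of promoters that shared this on and off pattern, the windows of 6 genes are printed, 5′ to 3′ on the strand of the gene, with every CpG in capitals. They are the 3 with the most and the 3 with the fewest CpG among the 20 most highly expressed of the genes with a single window, chromosomes 8 and 18 left aside. ELFN2 lies at chr22:37427430-37427729 on the minus strand, FERMT2 at chr14:52951001-52951300 on the minus strand, FLNC at chr7:128830156-128830455 on the plus strand, GTSF1 at chr12:54473553-54473852 on the minus strand, S100A4 at chr1:153545757-153546056 on the minus strand and HS6ST2 at chrX:132961321-132961620 on the minus strand.
ELFN2: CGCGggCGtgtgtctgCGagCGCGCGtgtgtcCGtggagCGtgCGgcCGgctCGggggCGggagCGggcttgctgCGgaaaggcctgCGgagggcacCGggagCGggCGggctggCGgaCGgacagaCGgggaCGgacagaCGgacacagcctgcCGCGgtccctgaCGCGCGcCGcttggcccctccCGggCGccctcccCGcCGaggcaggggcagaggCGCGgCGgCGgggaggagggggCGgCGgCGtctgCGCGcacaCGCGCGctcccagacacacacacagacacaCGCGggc
FERMT2: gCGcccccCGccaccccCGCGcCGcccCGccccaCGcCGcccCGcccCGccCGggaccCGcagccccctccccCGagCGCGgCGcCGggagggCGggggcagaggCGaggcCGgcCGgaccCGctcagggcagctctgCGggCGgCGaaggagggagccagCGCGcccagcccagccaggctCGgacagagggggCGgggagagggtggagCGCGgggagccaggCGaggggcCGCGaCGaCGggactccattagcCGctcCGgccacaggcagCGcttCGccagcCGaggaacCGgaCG
FLNC: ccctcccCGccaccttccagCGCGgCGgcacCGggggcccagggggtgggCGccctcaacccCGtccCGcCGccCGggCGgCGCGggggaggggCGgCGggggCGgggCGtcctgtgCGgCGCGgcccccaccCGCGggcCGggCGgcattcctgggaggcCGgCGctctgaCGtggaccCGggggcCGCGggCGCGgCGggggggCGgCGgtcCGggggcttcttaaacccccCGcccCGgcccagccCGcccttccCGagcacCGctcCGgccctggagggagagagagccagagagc
GTSF1: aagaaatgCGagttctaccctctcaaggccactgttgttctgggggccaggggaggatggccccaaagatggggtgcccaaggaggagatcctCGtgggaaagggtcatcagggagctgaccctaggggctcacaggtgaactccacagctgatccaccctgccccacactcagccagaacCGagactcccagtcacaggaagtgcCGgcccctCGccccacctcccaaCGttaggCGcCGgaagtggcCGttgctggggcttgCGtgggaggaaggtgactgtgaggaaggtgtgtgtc
S100A4: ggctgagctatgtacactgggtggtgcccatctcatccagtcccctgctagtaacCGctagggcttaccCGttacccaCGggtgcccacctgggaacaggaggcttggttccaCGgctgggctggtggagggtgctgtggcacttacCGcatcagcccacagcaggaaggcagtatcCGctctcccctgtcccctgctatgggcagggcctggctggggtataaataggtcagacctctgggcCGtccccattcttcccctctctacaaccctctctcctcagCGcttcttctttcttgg
HS6ST2: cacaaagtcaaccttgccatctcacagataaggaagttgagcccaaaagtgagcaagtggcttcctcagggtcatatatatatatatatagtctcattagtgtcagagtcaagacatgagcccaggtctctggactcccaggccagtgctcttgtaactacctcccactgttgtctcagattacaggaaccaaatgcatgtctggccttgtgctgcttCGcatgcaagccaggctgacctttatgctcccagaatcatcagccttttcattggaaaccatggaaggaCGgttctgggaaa

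The letters CG, which read the same on both strands, occurred 48 times in the ELFN2 window, 43 times in FERMT2 and 42 times in FLNC, against 10 in GTSF1, 8 in S100A4 and 2 in HS6ST2. Over all 35116 windows of the table the median was 14, with quartiles of 4 and 28, and 33725 windows held at least 1. The 6 windows thus ran from below the lower quartile to above the upper one. The letters TATAAA, or TTTATA on the other strand, were found in the S100A4 window and in none of the other 5. Of the genes at either end, ELFN2, a synaptic membrane protein, had 40.2 and 35.1 CPM in Control and YTHDF1 replicate 1 and 3 and 6 counts in Control and YTHDF1 replicate 2. HS6ST2, which adds sulfate to heparan sulfate, had 26.4 and 27.6 CPM in the libraries numbered 1 and 0 counts in both libraries numbered 2.

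The 227 genes held 221664 counts in Control replicate 1 and 226268 in YTHDF1 replicate 1. In Control replicate 2 they held 1172 counts and in YTHDF1 replicate 2 they held 1411. As shares of the libraries these were 0.378% (95% Wilson interval 0.377 to 0.38) and 0.386% (0.384 to 0.388) in replicate 1, and 0.00204% (0.00193 to 0.00216) and 0.00232% (0.0022 to 0.00244) in replicate 2. As the rule requires, both libraries numbered 1 were high and both numbered 2 were low, by 185-fold in Control and 167-fold in YTHDF1. The intervals cover counting error only, not the spread between cultures, and are no test of this difference. In such bulk libraries, fewer cells that express a gene and less RNA per cell cannot be told apart.

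**Figure D1:**
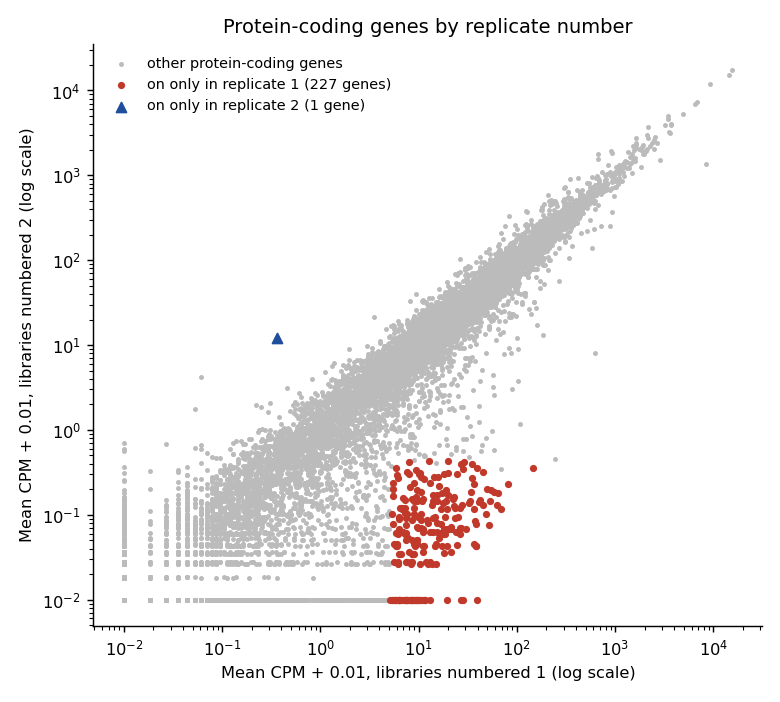
Each point is a protein-coding gene, with its mean CPM in the 2 libraries numbered 1 on the x axis and in the 2 libraries numbered 2 on the y axis, both as CPM + 0.01 on log scales. Red points are the 227 genes on only in replicate 1, below and to the right of the diagonal band, and the blue triangle is ERVV-2, the 1 gene on only in replicate 2.

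The pattern ran in 1 direction. The mirrored rule, with the replicate numbers exchanged, took 1 of the 19672 genes (0.00508%), the endogenous retroviral envelope gene ERVV-2, which had 13.1 and 11 CPM in Control and YTHDF1 replicate 2 and 16 and 25 counts in Control and YTHDF1 replicate 1. No gene was on in both libraries of a vector and off in both of the other, and none was on in 1 library of each number and off in the remaining 2. Of the 10778 protein-coding genes at 5 CPM or more in both libraries numbered 1, 9999 had mean CPM within 2-fold of replicate 2, 332 were between 2-fold and 8-fold above it and 310 were more than 8-fold above it. In the other direction 1 gene was more than 8-fold above. The 227 genes thus lay at the end of a sparse tail on one side of the plot of genes by replicate number, and made up 2.11% of the genes on in both libraries numbered 1 and 3.15% of those off in both libraries numbered 2.

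Within replicate 1 the 227 genes were expressed at low to moderate levels. Their median was 10.8 CPM in Control and 10.7 CPM in YTHDF1. In both libraries numbered 1, 119 genes had at least 10 CPM, 52 had at least 20, 9 had at least 50 and 1 had at least 100. The 20 highest genes held 29% of the CPM of all 227. The order of levels was nearly the same in both, with a Pearson r of 0.985 for log2 CPM across the 227 genes, which share the same 2 libraries and are not independent replicates.

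In replicate 2, 45 genes had 0 counts in both libraries and 72 had no more than 3 counts in either. A further view is the share of the level that remained, and the mean CPM in replicate 2 was 0.378% of that in replicate 1 at the median gene, with quartiles of 0.151% and 0.98% and a highest value of 5.93%. The most counts in both libraries together were those of MCAM, a cell adhesion protein, with 23 in Control and 27 in YTHDF1. The traces were uneven between the vectors for some genes. The genes with 0 counts in Control replicate 2 and at least 10 in YTHDF1 replicate 2 numbered 10, among them GTSF1 (23 counts), KLK6 (17) and COL6A2 (16), and 2 genes had the opposite, among them DIPK1B. These were picked after their values were seen, and each compares 1 library with 1.

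**Figure D2:**
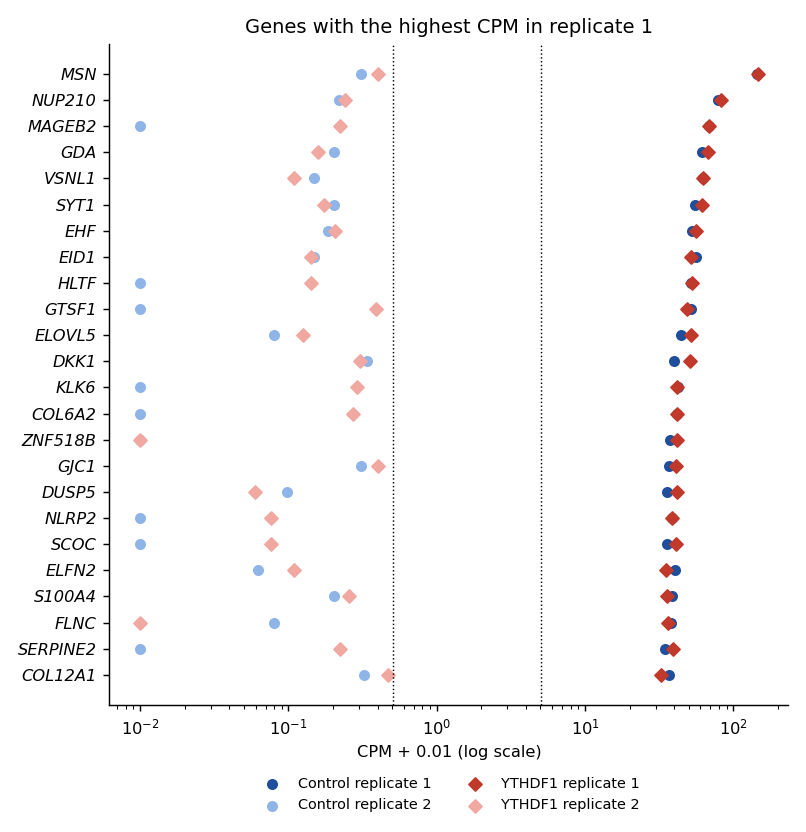
CPM + 0.01 on a log scale in each of the 4 libraries for 24 of the 25 genes with the highest CPM in replicate 1, circles for Control and diamonds for YTHDF1, dark for replicate 1 and pale for replicate 2, with dotted lines at 5 and 0.5 CPM. For every gene the dark symbols lie right of 5 CPM and close together, and the pale ones left of 0.5 CPM.

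The 20 genes with the highest levels came from many cell functions. In the following, the level in replicate 1 is given in CPM for Control and then YTHDF1, and that in replicate 2 as the number of counts for Control and then YTHDF1. MSN (moesin, which ties actin filaments to the plasma membrane) was the highest, with 145.0 and 146 CPM against 17 and 24 counts. NUP210, a membrane protein of the nuclear pore, followed with 78.9 and 83.2 CPM against 12 and 14 counts. MAGEB2, a cancer-testis antigen of the MAGE family, had 68.7 and 68.8 CPM against 0 and 13 counts. All 3 were separated between the replicate numbers by more than 2 orders of magnitude and were alike between the vectors.

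GDA, a guanine deaminase, had 61.7 and 67.7 CPM against 11 and 9 counts. VSNL1, a neuronal calcium sensor, had 62.2 and 62.4 CPM against 8 and 6 counts, and SYT1, the calcium sensor of synaptic vesicles, had 55.6 and 61 CPM against 11 and 10 counts. Neuronal genes therefore stood among the 6 highest. EHF, an ETS transcription factor of epithelia, had 52.7 and 55.6 CPM against 10 and 12 counts. EID1, an inhibitor of the acetyltransferase EP300, had 55.7 and 52.2 CPM against 8 and 8 counts, and HLTF, a helicase and ubiquitin ligase of DNA damage tolerance, had 51.5 and 52.4 CPM against 0 and 8 counts. The vector libraries of replicate 1 were again close to each other in each of these genes. GTSF1, a factor of small RNA silencing in germ cells, had 51.5 and 48.5 CPM against 0 and 23 counts. The fatty acid elongase ELOVL5 had 44.6 and 52.2 CPM against 4 and 7 counts, and the Wnt inhibitor DKK1 had 39.9 and 51.4 CPM against 19 and 18 counts. DKK1 had the widest gap between the vectors within replicate 1 among these 20 genes.

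A further 7 of the 20 had 35.5 to 42.4 CPM in the libraries numbered 1. They were the secreted protease KLK6, COL6A2, a chain of collagen VI, the zinc finger gene ZNF518B, the connexin gene GJC1, the ERK phosphatase gene DUSP5, the NLR family gene NLRP2 and SCOC, a coiled-coil protein. Of these 7, ZNF518B alone had 0 counts in both libraries numbered 2, with 37.3 and 41.5 CPM in replicate 1. NLRP2 and SCOC had 0 counts in Control and 4 in YTHDF1. GJC1 had the most counts left, 17 and 24. Per kilobase of exon (the union of GENCODE 29 exons), which allows levels to be compared between genes, MAGEB2 led with a mean of 42.7 CPM per kb in replicate 1, ahead of S100A4 with 36.2, MSN with 24.3, BEX3 with 23.6, EID1 with 23.5 and KLK6 with 21.3.

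Hand-written gene lists were used to sort the genes by role. They comprised 32 lists of families and functions and 8 lists of cell type markers, and 91 of the 227 genes were in at least 1 list while 136 were in none. The shares below are to be read beside the 1.15% of all protein-coding genes that followed the pattern. Lists differ in how many of their genes were used in these cells at all, so the share among the list genes at 5 CPM or more in both libraries numbered 1 is given where it reads differently, beside the 2.11% of all such protein-coding genes. Since the pattern was chosen from the same values, they are descriptions without a test.

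**Figure D3:**
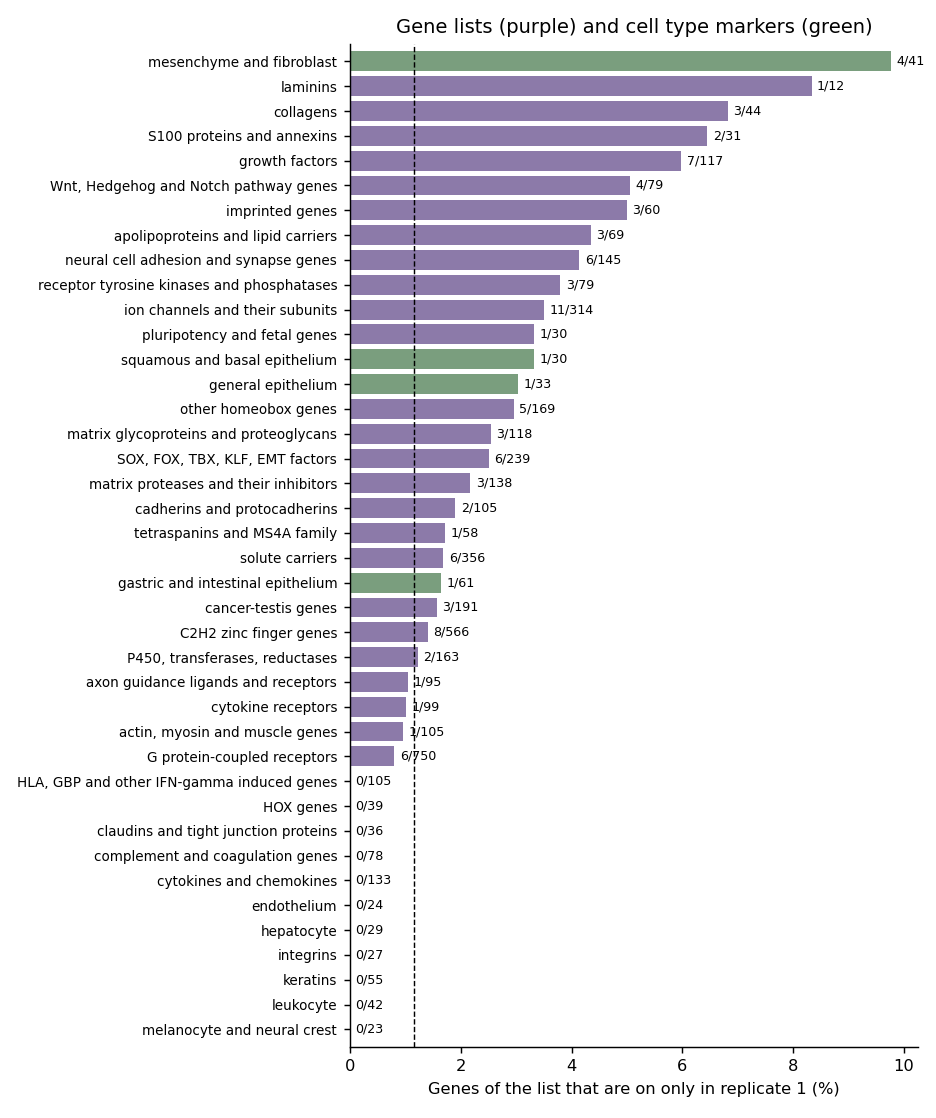
The x axis is the percentage of the genes of each list that were on only in replicate 1, with the number of such genes and of list genes in the table beside each bar, for lists of families and functions (purple) and cell type markers (green), and the dashed line is the 1.15% of all protein-coding genes. The longest bar is that of the mesenchyme and fibroblast markers (4 of 41), and 11 lists held none.

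Genes of the matrix and of cell shape were among the 227. Of 44 collagen genes 3 were included (6.82%), which were COL6A2 with 41.5 and 41.7 CPM against 0 and 16 counts, COL12A1, a collagen that binds fibrils, with 37.0 and 32.3 CPM against 18 and 28 counts, and COL4A5, a basement membrane chain, with 12 and 10.3 CPM against 0 and 7 counts. Of 118 matrix glycoproteins and proteoglycans 3 were included (2.54%), PXDN, a peroxidase that crosslinks collagen IV, SRPX and FBLN1, a fibulin. PXDN had 24.2 and 21.4 CPM against 6 and 8 counts. Of these 6 genes all but COL6A2 had lower CPM in YTHDF1 than in Control replicate 1, each by less than 0.5 on the log2 scale. Over all 227 genes the log2 ratio was below 0 for 98. This compares 1 library with 1, and the 6 genes are not replicates of a vector. Of 105 actin, myosin and muscle genes 1 was included (0.952%), FLNC, an actin-binding filamin, with 37.7 and 36.3 CPM against 4 and 0 counts. The laminin chain LAMC3 was the 1 gene of 12 laminins, and of 138 matrix proteases and inhibitors 3 were included (2.17%), the protease inhibitors SERPINE2 and CST6 and the protease ADAMTS14. SERPINE2 had 34.4 and 39.5 CPM against 0 and 13 counts. Of 105 cadherins and protocadherins, DSC3, a desmosomal cadherin, and PCDH1 were included, with 20.6 and 21.9 CPM and 19.6 and 18.7 CPM in replicate 1.

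Ion channel genes gave the largest number of any list, 11 of 314 (3.50%). Among the highest were GJC1, CACNA1H, a T-type calcium channel, and CACNA2D2, an auxiliary calcium channel subunit. CACNA1H had 30.5 and 30.1 CPM against 2 and 5 counts, and CACNA2D2 had 7.68 and 8.43 CPM against 12 and 23 counts. Lower in the list were GRIN2B, KCNG1, KCNJ12, GABRQ, KCNH2 and SCN8A, at 5.42 to 8.12 CPM in the libraries numbered 1. The named genes included potassium, sodium and calcium channel genes as well as a glutamate and a GABA receptor subunit, and so did not come from a single channel family. Of 145 neural adhesion and synapse genes 6 were included (4.14%). The 4 highest were SYT1, CPE, which trims peptide hormones, MAPT, which encodes tau, and MAP1B, another microtubule-associated protein. CPE had 18.1 and 18.4 CPM against 2 and 5 counts and MAPT had 19 and 17.4 CPM against 0 and 6 counts. Of the list, 36 genes were at 5 CPM or more in both libraries numbered 1, and 14 of these 36 were not at that level in all 4, against 575 of 10778 protein-coding genes (5.33%). Its summed level was 1480 CPM in both libraries numbered 1 and 1590 CPM in both numbered 2, so the sum did not follow the number of genes on.

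Secreted signals and their receptors formed another group. Of 117 growth factors 7 were included (5.98%), and the 4 highest were FGF2, FSTL1, IGF2 and FGF19. FGF2, a basic fibroblast growth factor, had 15.1 and 17.4 CPM against 5 and 0 counts, and IGF2, an imprinted growth factor, had 13.4 and 14.6 CPM against 11 and 5 counts. FGFR1, a receptor of the fibroblast growth factors, was on in the same libraries, with 26.5 and 26.5 CPM against 7 and 6 counts, as were ROR2, a Wnt receptor with 0 counts in both libraries numbered 2, and the phosphatase PTPRH, which made 3 of 79 receptor tyrosine kinases and phosphatases (3.8%). The list of Wnt, Hedgehog and Notch genes held 4 of 79 (5.06%), DKK1, the Notch target HEYL and the ligands WNT9A and WNT3A. WNT9A had 5.39 and 6.45 CPM against 0 and 0 counts and WNT3A 5.61 and 5.27 CPM against 4 and 4 counts. G protein-coupled receptors were 6 of 750 (0.80%) but 6 of the 53 on in both libraries numbered 1 (11.3%), since 639 were under 0.5 CPM in all 4 libraries, and 4 of the 6 were ADGRG1, LPAR3, HTR7 and GPRC5C. LPAR3, which binds lysophosphatidic acid, had 16.4 and 17.5 CPM against 3 and 3 counts.

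Transcription factors came from several families. Of 169 homeobox genes outside the HOX clusters 5 were included (2.96%), ZFHX4, ONECUT3, LMX1B, CDX2 and IRX4, while 0 of 39 HOX genes were. Of the 16 HOX genes on in both libraries numbered 1, however, 5 were not on in all 4, against 5.33% of all such protein-coding genes. CDX2, which specifies intestinal epithelium, had 8.51 and 8.80 CPM against 0 and 3 counts. ONECUT3 had 14.0 and 16.0 CPM against 0 and 2 counts. These levels were low, but the groups of libraries did not overlap, as the rule requires. The list of SOX, FOX, GATA, TBX, KLF and related factors held 6 of 239 (2.51%), of which the 4 highest were MEF2C, RUNX3, TBX18 and KLF7. RUNX3, a Runt family factor studied as a tumour suppressor in the stomach, had 16.0 and 15.7 CPM against 8 and 24 counts. C2H2 zinc finger genes were 8 of 566 (1.41%), and 2.15% of those on in both libraries numbered 1, led by ZNF518B, ZNF704, ZNF512B and ZNF385B. ZNF704 had 26.3 and 30.1 CPM against 22 and 18 counts.

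Metabolic and transport genes were included at shares near or above the 1.15% of all protein-coding genes. Solute carriers were 6 of 356 (1.69%) and cytochromes P450, transferases and related enzymes were 2 of 163 (1.23%), CYP1B1 and ALDH3B1. Among the genes on in both libraries numbered 1 these were 3.43% and 4.44%. The 4 highest carriers were SLC22A31, SLC6A17, SLC36A4, a lysosomal amino acid carrier, and SLC30A3, a carrier of zinc into synaptic vesicles, at 6.36 to 11.2 CPM in the libraries numbered 1. Of 69 apolipoproteins and lipid carriers 3 were included (4.35%), among them PLIN2, which coats lipid droplets, and RBP7. PLIN2 had 10.4 and 8.46 CPM against 8 and 10 counts and RBP7 had 9.81 and 10.3 CPM against 0 and 0 counts. Of 60 imprinted genes 3 were included (5.00%), NLRP2, PLAGL1 and IGF2, and of 31 S100 proteins and annexins 2 were included (6.45%), S100A4 and ANXA6. S100A4 had 38.5 and 35.6 CPM against 11 and 15 counts, and ANXA6 had 35.8 and 32.1 CPM against 10 and 11 counts.

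All 4 cultures had received IFN-γ. Of the 105 genes listed as HLA, GBP and other IFN-γ-induced genes none followed the pattern, while 75 were at 5 CPM or more in all 4 libraries. This list was written by hand and is not complete, and CD40, named below, was not in it. The 0 therefore holds for the listed genes only. Cytokines and chemokines (133 genes) and complement and coagulation genes (78 genes) gave 0 as well. Genes with a role in immunity were nonetheless present, and 3 are named after their values were seen. CD40, the receptor for CD40 ligand, was the 1 gene of 99 cytokine receptors and had 26.3 and 27.1 CPM against 0 and 6 counts. SIRPA, the receptor of CD47, had 21.0 and 21.5 CPM against 0 and 7 counts. STING1, the adaptor of cytosolic DNA sensing, had 9.38 and 9.69 CPM against 10 and 12 counts. All 3 were thus high in the cultures numbered 1 and near 0 in those numbered 2 with either vector.

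The cell type markers did not place the 227 genes in 1 cell type. The list of mesenchyme and fibroblast markers held 4 of 41 (9.76%), MSN, COL6A2, S100A4 and FBLN1. Of the 41, 13 were on in both libraries numbered 1, 6 were on in all 4 libraries and 21 were under 0.5 CPM in all 4. The list summed to 539 and 540 CPM in Control and YTHDF1 replicate 1 and to 351 and 355 CPM in replicate 2. Without the 4 genes, the other 37 summed to 306 and 311 CPM in replicate 1 and to 350 and 353 CPM in replicate 2. The rule had chosen the 4 as high in replicate 1, so leaving them out lowers that side by itself. A large part of the remaining sums was AXL, with 122 and 118 CPM in replicate 1 and 192 and 196 CPM in replicate 2. The sum of the 37 therefore gives no direction for the list. The other markers went both ways. NT5E, a surface enzyme that makes adenosine, had 23.5 and 26.3 CPM in replicate 1 and 2.79 and 2.17 CPM in replicate 2, and FN1 (fibronectin), SNAI1, COL1A1 and COL6A1 were also higher in replicate 1. VIM (vimentin) had 13 and 12.6 CPM in replicate 1 and 18.4 and 18.5 CPM in replicate 2, and AXL, ACTA2 and ZEB1 were also higher in replicate 2. The fibroblast markers DCN, THY1, PDGFRA and LUM had at most 0.209 CPM in any library.

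EHF was the 1 gene of the 33 general epithelial markers. Of these 33, 31 were on in both libraries numbered 1 and 26 in all 4. The list summed to 6360 and 6100 CPM in replicate 1 and to 8000 and 8380 CPM in replicate 2, but without its keratins to 2520 and 2520 CPM in replicate 1 and to 1860 and 1910 CPM in replicate 2. The keratins KRT8 and KRT18 were higher in replicate 2, whereas the tight junction gene CLDN4 had 55.8 and 56.9 CPM in replicate 1 and 0.923 and 0.986 CPM in replicate 2. The transcription factor ELF3, which like EHF belongs to the ETS family, had 33.4 and 38.7 CPM in replicate 1 and 2.997 and 2.941 CPM in replicate 2. PRSS8, GRHL2 and CDH3 were also higher in replicate 1. EPCAM, CDH1 and the keratins KRT8, KRT18 and KRT19 were on in all 4 libraries.

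CDX2 was the 1 gene of 61 gastric and intestinal markers, a list with 45 genes under 0.5 CPM in all 4 libraries, which summed to 278 and 291 CPM in replicate 1 and 509 and 484 CPM in replicate 2. ANXA10 alone held 133 and 143 CPM of these sums in replicate 1 and 280.5 and 260 CPM in replicate 2. The intestinal markers CDX1 and LGALS4 were at or near 0 in every library. Other markers of the list went both ways at low levels. HNF4A had 1.14 and 1.48 CPM in replicate 1 and 0.0697 and 0.0493 CPM in replicate 2. LGR5 had 0.256 and 0.205 CPM in replicate 1 and 0.836 and 1.13 CPM in replicate 2. DSC3 was the 1 gene of 30 squamous and basal markers. Markers of endothelium (24 genes), leukocytes (42), melanocytes and neural crest (23) and hepatocytes (29) gave 0. Their summed levels were 52.6 to 57.3 CPM for endothelium and 90.6 to 92.5 CPM for leukocytes in replicate 1, against 44.0 to 44.9 and 146 to 148 CPM in replicate 2. LCP1 alone held 28.0 and 31.1 CPM of the leukocyte sums in replicate 1 and 80.5 and 80.4 CPM in replicate 2. Of the 42 leukocyte markers 30 were under 0.5 CPM in all 4 libraries. PECAM1 had at most 0.324 CPM and PTPRC, the pan-leukocyte marker CD45, at most 0.181 CPM in any library.

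Some of the 227 genes lay side by side. Each gene has a nearest protein-coding gene on either side, which gave 454 neighbour positions. Of these positions 20 were held by a gene of the 227, or 4.41%, against 1.15% of all protein-coding genes. Each adjacent pair was counted from both sides. Neighbours at 5 CPM or more in all 4 libraries were 49.1%, against 51.9% of all protein-coding genes. The adjacent genes formed 10 pairs with 19 genes. They included the kallikreins, treated next, and GNG7 and DIRAS1, MAGEA2 and CSAG3, MKX and ARMC4, RNF217 and TPD52L1, RTL8C and RTL8A, WNT9A and WNT3A, and ZBTB10 and ZNF704. By chromosome, the X had the highest share, 18 of its 847 protein-coding genes (2.13%). The share of neighbours and that of the X both count RTL8A and RTL8C separately. These and other copies on the X are uncertain as separate genes, as given below.

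The kallikrein-related peptidases are secreted serine proteases encoded in a row on chromosome 19. This family and the families on the X were looked at after the values were seen. Of 15 kallikrein genes 4 were on only in replicate 1. KLK6 had 42.4 and 41.6 CPM against 0 and 17 counts, KLK7 had 20.1 and 19 CPM against 3 and 10, KLK8 had 7.16 and 8.07 CPM against 0 and 0, and KLK10 had 21.3 and 24.7 CPM against 9 and 9. KLK6, KLK7 and KLK8 are adjacent and span chr19:50958631-51001604 on GRCh38.p14. KLK5 followed the same direction below the threshold, with 3.10 and 3.17 CPM in replicate 1 and 0 counts in replicate 2. The other 10 kallikrein genes, KLK9 among them, had less than 0.5 CPM in every library, so the family was not on as a whole.

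**Figure D4:**
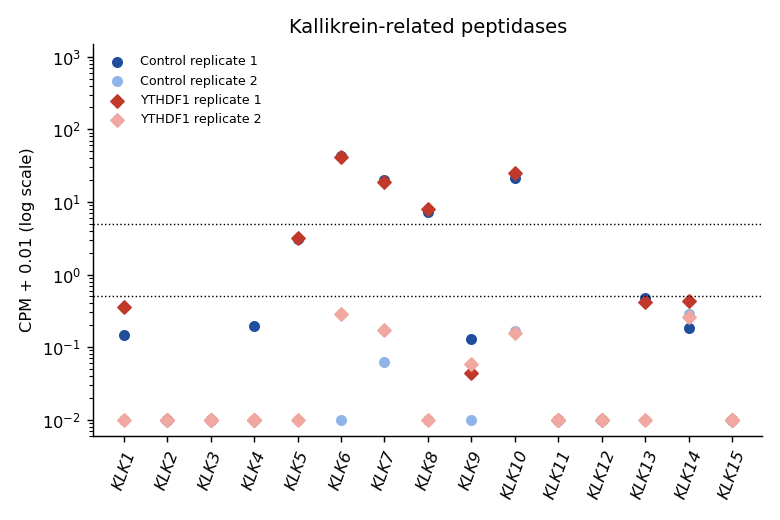
CPM + 0.01 on a log scale in each library for the 15 kallikrein-related peptidase genes, circles for Control and diamonds for YTHDF1, dark for replicate 1 and pale for replicate 2, dotted lines at 5 and 0.5 CPM. KLK6, KLK7, KLK8 and KLK10 have dark symbols above 5 CPM and pale symbols below 0.5 CPM.

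On the X, cancer-testis genes, which are normally used in germ cells, were 3 of the 191 listed (1.57%) and 3 of the 22 of them on in both libraries numbered 1 (13.6%). They were MAGEB2, MAGEA2 and MAGEA2B, and the last pair are near-identical copies whose reads the authors' counting could have shared between them, with 28.6 and 24.9 CPM for MAGEA2 and 28.5 and 24.6 CPM for MAGEA2B. They are uncertain as separate genes, as are CSAG3 and CSAG2, of which CSAG3 met the rule and CSAG2 missed it with 4.97 CPM in YTHDF1 replicate 1, and RTL8A and RTL8C, with 19.5 and 19.6 CPM and 10.5 and 10.2 CPM in replicate 1. MAGEA3 had 4.14 and 3.67 CPM in replicate 1 and 0 counts in replicate 2, below the threshold. Of 5 BEX genes BEX2 and BEX3 were included, with 15.0 and 15.5 CPM and 25 and 26 CPM in replicate 1, whereas BEX5 was higher in replicate 2, with 2.06 and 2.43 CPM against 0.972 and 0.768.

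Applied to 26755 non-coding genes and pseudogenes, the same rule took 8 (0.0299%). The 5 highest were LINC00698 with 12 and 11.1 CPM, ANKRD19P, a transcribed pseudogene, with 10.7 and 9.38 CPM, P2RX5-TAX1BP3, a readthrough transcript, with 6.11 and 7.59 CPM, LINC00839 with 7.11 and 6.55 CPM and LOC105379051 with 5.25 and 6.36 CPM in Control and YTHDF1 replicate 1. Of these, LINC00698, LINC00839 and LOC105379051 had 0 counts in both libraries numbered 2. A readthrough transcript shares exons with its coding genes, so its counts are uncertain.

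The thresholds cut through a continuous range. Just inside the upper one were FBXO17, TCF7L1 and ARNT2 with 5.10, 5.17 and 5.36 CPM in Control replicate 1 and CNTLN with 5.02 CPM in YTHDF1 replicate 1, and just outside were MCOLN2, SLC16A6 and WNT10B with 4.95, 4.69 and 4.45 CPM in Control replicate 1 and CSAG2, DOCK3 and WHRN with 4.97, 4.90 and 4.85 CPM in YTHDF1 replicate 1. At the lower one, ZNF608 had 0.436 CPM and MCAM 0.401 CPM in Control replicate 2 and RAB31 had 0.493 CPM in YTHDF1 replicate 2, whereas NFATC1 (0.523 CPM in Control) and OR51B4 and ADAM19 (0.509 and 0.526 CPM in YTHDF1) fell outside. VCAN, a large matrix proteoglycan, had 235 and 254 CPM in replicate 1, more than any of the 227, and was left out by its 0.674 CPM in YTHDF1 replicate 2.

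The rule asked for the same pattern with both vectors, so no gene that the vector switched on or off could be included. Smaller differences between the vectors did not enter the rule. Their comparison asks whether YTHDF1-overexpressed cells differed from control cells. All 227 genes entered the test, since their level in the libraries numbered 1 is enough to pass the filter on low counts. Genes were called at a size of the log2 fold change from 0.5 upwards with p under 0.05 by edgeR's quasi-likelihood test. With p not adjusted, 18 of 17781 genes were called (0.101%) and 0 of the 227 were. With the adjusted p 0 of 17781 were called (0%). This fit left out the replicate number, and a fit with it as a block, which called more genes, is given at the end. At an unadjusted p under 0.05 with no fold asked for, 24 of 17781 genes (0.135%) and 0 of the 227 passed in edgeR, and 0 of the 227 in DESeq2 and in limma-voom.

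The smallest p among the 227 was that of TSC22D3, a glucocorticoid-induced leucine zipper gene, whose log2 fold change was 0.64 with a standard error of 2.09 and an adjusted p of 1 in edgeR. Standard errors of the 227 log2 fold changes were 1.89 to 3.60 with a median of 3.13, against a median of 0.274 over all genes tested, and each vector had 1 library with the gene on and 1 with it off. A difference of 0.5 on the log2 scale was not detectable with such errors, so the 0 called among the 227 does not show that the vectors were alike. Their median log2 fold change was 0.041, and that of all genes tested was 0.0046. The median of the 227 rested on the balance of the 4 libraries. It was 7.28 without Control replicate 1, −6.69 without YTHDF1 replicate 1, −0.96 without Control replicate 2 and 1.02 without YTHDF1 replicate 2, and it was −0.08 in limma-voom.

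Within replicate 1, where each vector has 1 library and there is no replicate check, the vectors were close. The log2 ratio of YTHDF1 over Control had a median of 0.026 over the 227 genes and of 0.0034 over the 10778 protein-coding genes on in both libraries. It was above 0 for 129 genes and below 0 for 98. The 5th and 95th percentiles were −0.23 and 0.30, and the extremes were −0.44 in MYOM3 and 0.68 in TSC22D3. At least 0.5 higher was 1 of the 227 genes, TSC22D3 with 5.85 CPM in Control and 9.38 CPM in YTHDF1, where 0.13% of the genes on in replicate 1 were so, and at least 0.5 lower were 0 of the 227, where 0.111% were so.

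**Figure D5:**
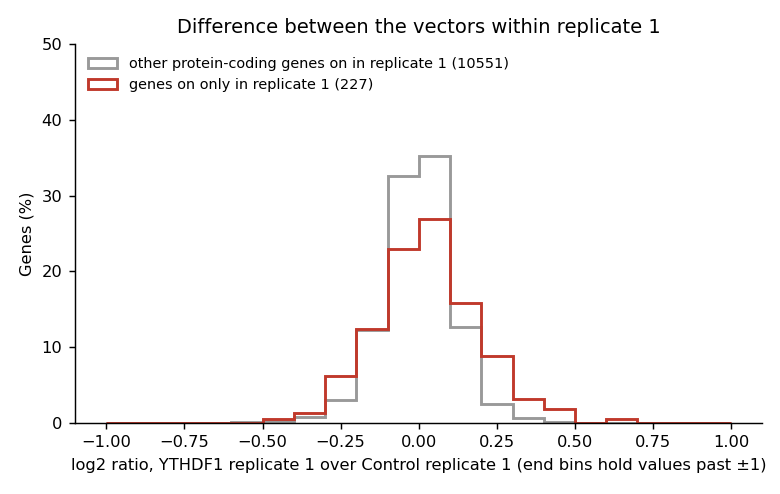
The x axis is the log2 ratio of YTHDF1 replicate 1 over Control replicate 1 and the y axis the percentage of genes in bins of width 0.1, for the 227 genes (red) and the other 10551 protein-coding genes at 5 CPM or more in both libraries (grey). Both outlines are centred near 0, at medians of 0.026 for the red one and 0.0034 for all genes on in replicate 1, and 1 of the 227 genes lies above 0.5.

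Among genes with at least 10 CPM in either library, the largest ratios above 0 were those of the exchange factor ARHGEF4 (9.01 and 12.2 CPM in Control and YTHDF1, log2 ratio 0.43), DKK1 (0.37), CPNE8 (0.32), TBX18 (0.31) and SDR42E1 (0.31). The largest below 0 were those of PWWP3B (11.7 and 9.43 CPM, log2 ratio −0.31), PDE9A (−0.30), PLIN2 (−0.29), RGL3 (−0.26) and STC2 (−0.26). Each is a single pair of libraries. The summed level of the 227 genes was 3781 CPM in Control and 3860 CPM in YTHDF1 replicate 1. In replicate 2 it was 20.4 CPM in Control and 23.2 CPM in YTHDF1, with median counts of 3 and 4 a gene. The rule holds each gene under 0.5 CPM there, so these sums are no second check of the direction. YTHDF1 itself was at 83.4 and 16569 CPM in the libraries numbered 1 and at 79.4 and 2607 CPM in those numbered 2, and its part in the replicate pattern was not tested.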

How the data were processed

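The authors extracted RNA on columns, made stranded poly(A) libraries and deposited counts, as whole read numbers for every gene and each of 4 libraries, without normalization. The submitters' processing notes name Trimmomatic, HISAT2 and GRCh38; the counting tool, its strand setting and the annotation release are not given in the sources used here. Total counts were 57398137 to 60864942 per library. The genes and the lists were chosen with earlier results of these data known.

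CPM were computed from the column totals. The vectors were compared with edgeR 4.0.16 (R 4.3.3) by the quasi-likelihood test after filterByExpr and TMM scaling, with Benjamini-Hochberg adjustment over 17781 genes, all 4 libraries entering and no covariate, at a log2 fold change of 0.5 and p of 0.05. Log2 ratios within replicate 1 used a prior count of 2. Groups came from the sample titles. P-values measure the spread between these libraries, which are labelled biological replicates. DESeq2 1.42.0, limma 3.58.1, other filters, other thresholds, a replicate block and each library left out were alternatives. Gene neighbours and promoters came from RefSeq GRCh38.p14 and exon lengths from GENCODE 29, which matched all 227 genes. Genes named were the 20 highest, up to 4 per list with at least 2 of the 227 genes, the cell type markers that define the lists, the 5 largest ratios each way within replicate 1, up to 3 genes at each threshold, up to 5 non-coding genes and the gene of the mirrored rule, and others as stated. Some genes that the rule would name are not reported here. Plots were made in matplotlib 3.10.9 (Python 3.11.15).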

Additional observations from a re-analysis of the deposited data

How the results depend on the processing

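The number of genes on only in replicate 1 was 227, and it was 119 with at least 10 CPM asked for in replicate 1, 400 with at least 2 CPM, and 113 with less than 0.1 CPM asked for in replicate 2. Leaving out each library in turn gave 234 to 236. With TMM scaling, less than 1 CPM, or non-coding genes added it was 226, 273 and 235. The mirrored rule took 0 to 2 genes under settings chosen after seeing the data. The genes called between the vectors were 18, and 82 without the filter on low counts and 47 to 60 with a library left out, where the lone library of a vector is assumed to vary like the other vector. With the adjusted p they were 0, and 3 by DESeq2's Wald test. In all of these settings 0 of the 227 genes were called, but with at least 10 counts asked for in every library only 35 of them were tested. By the labels the 2 pairs share only a number, though same-numbered libraries deviated alike, as given below. With the replicate number as a block, 192 genes were called, 8 with the adjusted p, and 0 of the 227. Of the 227, DKK1, ELOVL5, STC2 and SDR42E1 then had an unadjusted p under 0.05, as had 674 of all 17781 genes, with an adjusted p of 0.924 for DKK1. Deviations of same-numbered libraries from the mean of their vector correlated at 0.902. This is 1 value and not 2, since with 2 libraries a vector the deviations of replicate 2 mirror those of replicate 1. The median log2 ratio within replicate 1 was 0.026, against 0.050 when YTHDF1 was dropped from the library sizes and 0.040 with TMM scaling. The cause of these shifts in counts was not tested.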
